A study of Mus musculus with 9 samples.

Results

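CD8+ T cells can carry receptors that were first described on natural killer (NK) cells, and 7 genes for such receptors were followed here: Klrc1, Klrc2, Klrd1, Klrk1, Klrg1, Klrb1c and Ncr1. They were chosen by symbol, all 7 were found among the 20418 gene symbols of the deposited tables, and all 7 passed the filter on low counts that left 13479 genes for testing. Where a symbol had several transcripts, the one with the highest mean read count was taken. The study asked how interleukin-2 (IL-2) and interleukin-15 (IL-15), growth factors of T cells, act on splenic CD8+ T cells, which came from C57BL/6 females that were 6 weeks old. Cells were given IL-15 or IL-2 at 500 nM or 1 nM and taken at 24 h or 4 h, or were not treated, and the untreated library carries no time label. That makes 8 treated libraries and 1 untreated library, each a pool of RNA from 3 samples treated alike, and no sort or gate is named in the labels. No condition has a second library, so p-values measure only the spread left over between these libraries once cytokine, dose and time have been fitted.

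NK receptors tune the killing by NK cells and by CD8+ T cells through opposing signals. Klrc1 encodes NKG2A, an inhibitory receptor, and Klrc2 encodes NKG2C, its activating relative. Both reach the cell surface paired with CD94, the product of Klrd1, and in the mouse the pair reads Qa-1, a non-classical MHC molecule whose heavy chain comes from H2-T23. Klrk1 encodes NKG2D, an activating receptor for stress-induced ligands that costimulates CD8+ T cells. Klrg1 encodes an inhibitory receptor for cadherins that is widely used to mark effector CD8+ T cells, Klrb1c encodes NK1.1, the marker by which NK cells are recognised in C57BL/6 mice, and Ncr1 encodes NKp46, an activating receptor of NK cells.

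The libraries held between 27158143 and 48799962 counts, summed over 1 transcript per gene. A count of 0 allows at most 3 counts, which is 0.0594 to 0.113 CPM (counts scaled to 1000000 per library) across the libraries. Intervals and limits cover counting error only, since amplified reads that carry no molecular identifier do not count molecules one by one. All 10 T cell markers were detected in every library, Cd8a and Cd8b1 included. Their sum was 3504 to 4521 CPM in the 500 nM libraries, 3482 to 5524 CPM in the 1 nM libraries and 5645 CPM in untreated cells. Markers of other spleen cells were also present. A list of 16 NK cell markers without the 7 genes had a sum of 159.9 to 286 CPM in the 500 nM libraries, 87.8 to 177 CPM in the 1 nM libraries and 340.3 CPM untreated. Of these 16, 13 were detected in untreated cells, and from 11 (IL-15, 1 nM, 24 h) to 15 (IL-2, 500 nM, 24 h) in the treated libraries. The integrin gene Itga2, whose product carries the DX5 epitope used to define mouse NK cells, was at 0 counts in all 9 libraries. Cma1 was at 0 in 8 of them. In RNA from a mixed preparation, fewer cells of a type and less RNA per cell cannot be told apart.

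The first comparison was of dose. Cells given 500 nM held more mRNA of Klrc1, the gene of the inhibitory partner of CD94, than cells given 1 nM. Klrc1 rose by 2.98 ± 0.69 on the log2 scale (SE, 4 libraries against 4, edgeR quasi-likelihood adjusted p = 0.021) and was the only 1 of the 7 genes to pass the test. Klrc2 had an estimate nearly as high, 2.63 ± 0.82, but an edgeR adjusted p of 0.058. Klrd1 pointed the other way, at -1.30 ± 0.43 (edgeR adjusted p = 0.069). Among all genes tested, 16.1% passed for dose, 7.63% as higher and 8.47% as lower. The median estimate of the 7 genes was -1.30, against -0.03 for all genes. At an unadjusted p under 0.05 there were 4 of the 7, against 32.2% of all genes. DESeq2 called 4, against 28.1% of the genes it gave an adjusted p, and limma-voom called 3, against 20.8%.

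Klrc1 (NM_001136068, minus strand of chromosome 6) was counted in every library. At 500 nM and 24 h it measured 3.38 CPM with IL-15 and 4.16 CPM with IL-2, and at 500 nM and 4 h it measured 3.33 CPM with IL-15 and 1.73 CPM with IL-2. With 1 nM the level was 0.176 CPM under IL-15 and 0.554 CPM under IL-2 at 24 h, and 0.340 CPM under IL-15 and 0.619 CPM under IL-2 at 4 h. Untreated cells had 0.129 CPM, from 4 counts. All 4 libraries at 500 nM therefore lay above all 4 at 1 nM, and all 8 treated libraries lay above the untreated one. In this order of levels, neighbouring libraries had overlapping 95% Poisson intervals except at 2 steps. IL-15 at 500 nM and 4 h (2.74 to 4.00 CPM) stood clear of IL-2 at the same dose and time (1.31 to 2.24 CPM), which in turn stood clear of IL-2 at 1 nM and 4 h (0.392 to 0.929 CPM).

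Klrc2 (NM_010653, minus strand of chromosome 6) stood lower than Klrc1 at 500 nM but separated the doses in the same way. The share of Klrc1 in the sum of the 2 genes, taken on the deposited RPKM values (reads scaled by exon length and library total), was 61.4% to 64.6% in the 4 libraries at 500 nM. It ranged from 42.3% to 76.2% at 1 nM and was 32.8% in untreated cells, where the 2 genes had 4 and 8 counts. In CPM, Klrc2 measured 1.81 with IL-15 and 2.27 with IL-2 at 500 nM and 24 h, and 1.95 with IL-15 and 1.06 with IL-2 at 500 nM and 4 h. The 1 nM libraries held 0.151 CPM for IL-15 and 0.336 CPM for IL-2 at 24 h, and 0.453 CPM for IL-15 and 0.188 CPM for IL-2 at 4 h, against 0.258 CPM in untreated cells. The 500 nM and 1 nM libraries again did not overlap, while the untreated level lay within the 1 nM range, and every pair of neighbours in the order of levels had overlapping intervals. Such a clean separation with 500 nM higher was met by 8.55% of all genes tested, and with 500 nM lower by 10.3%.

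Within each cytokine and time, the 500 nM library exceeded the 1 nM library for both genes. For Klrc1 the ratio of CPM, with its 95% counting interval, was 19.2 (9.03 to 48.9) with IL-15 at 24 h and 7.52 (4.99 to 11.7) with IL-2 at 24 h. At 4 h it was 9.79 (4.98 to 22.0) with IL-15 and 2.79 (1.69 to 4.74) with IL-2. For Klrc2 the corresponding ratios were 12.0 with IL-15 and 6.74 with IL-2 at 24 h, and 4.32 with IL-15 and 5.63 with IL-2 at 4 h. Tested at each time, Klrc1 rose at 24 h, by 3.42 ± 0.99 (log2, SE, edgeR adjusted p = 0.020), where 31.2% of all genes passed and 15.6% as higher. This call was lost without any of 3 of the 4 libraries at 24 h, with an edgeR adjusted p of 0.148 without IL-2 at 500 nM, 0.142 without IL-15 at 1 nM and 0.109 without IL-15 at 500 nM. At 4 h its estimate was 2.50 ± 0.98 (edgeR adjusted p = 0.14), none of the 7 genes passed by edgeR, DESeq2 or limma-voom, and 10.1% of all genes passed by edgeR. At an unadjusted p under 0.05 there were 3 of the 7, against 22.4% of all genes. The difference between these 2 times was itself tested and did not pass for any of the 7 genes (dose by time, edgeR, with none by DESeq2 or limma-voom, 8.81% of all genes passed, no member with an unadjusted p under 0.05), with 0.92 ± 1.30 for Klrc1.

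The Klrc1 dose call needed most of the libraries. Leaving out 1 library at a time kept the estimate between 2.57 and 3.45, but the edgeR adjusted p was 0.103 without IL-2 at 500 nM and 24 h, 0.065 without IL-15 at 1 nM and 24 h, 0.064 without IL-15 at 500 nM and either 4 h or 24 h, and 0.053 without IL-2 at 1 nM and 24 h. Reads of these genes may also have been divided between relatives, since the counting of reads that match several genes is not given in the sources used here. In stretches of 36 bases, an assumed read length, 36.7% of the Klrc1 transcript and 52.5% of the Klrc2 transcript also occurred in another gene, mostly in each other or in Klrc3. With Klrc1, Klrc2 and Klrc3 summed, a setting chosen after the data had been seen, the dose estimate was 2.76 ± 0.55 (edgeR adjusted p = 0.013). The summed NK cell markers overlapped between the doses (159.9 to 286 CPM at 500 nM, 87.8 to 177 CPM at 1 nM). Their sum was highest in untreated cells, at 340.3 CPM. It included there 94.7 CPM of Tyrobp, 88.4 CPM of Fcer1g and 27.7 CPM of Fcgr3, genes that fell with dose. The median dose estimate over the tested genes of this list was 0.50. The part of NK cells in the Klrc1 values was not tested.

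**Figure D1:**
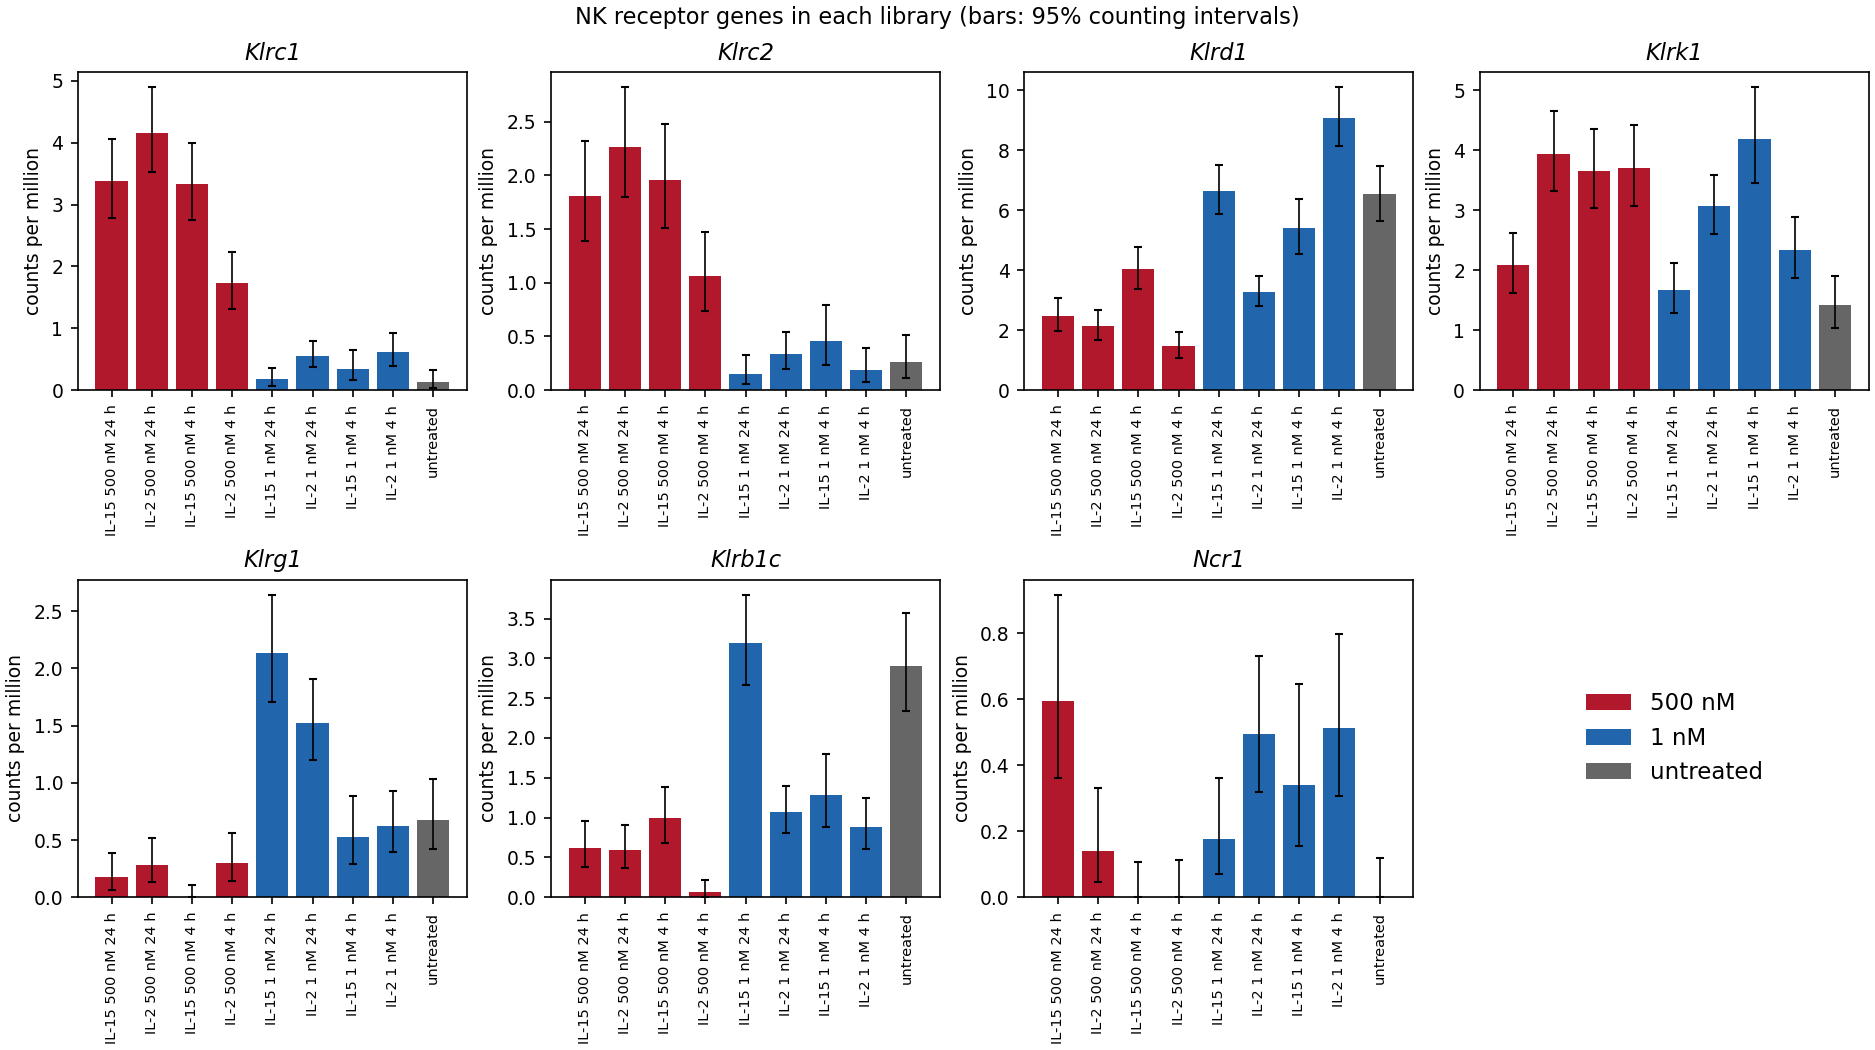
Level of each of the 7 NK receptor genes in each of the 9 libraries, in CPM on a linear axis that differs between panels. Bars are single libraries with 95% Poisson counting intervals, coloured by dose. All 4 bars at 500 nM stand above those at 1 nM for Klrc1 (1.73 to 4.16 against 0.176 to 0.619 CPM) and Klrc2 (1.06 to 2.27 against 0.151 to 0.453 CPM), and below them for Klrg1 (0 to 0.303 against 0.528 to 2.14 CPM). Of all genes tested, 8.55% had 500 nM higher throughout and 10.3% lower.

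Klrc1 and Klrc2 are neighbours in the NK gene complex. In the GENCODE annotation of GRCm38, a later build than the mm8 listed for the reads, Klrc1 spans chr6:129666015-129678973 and Klrc2 spans chr6:129647496-129660689, both on the minus strand, with Klrk1 in the same region at chr6:129610323-129623864 on the same strand and Klrd1 at chr6:129591782-129598775 on the plus strand. Windows of 300 bases around the annotated starts, 250 before and 50 after, were taken from RefSeq (GRCm38.p6) and held an entry for 5 of the 7 genes, Klrd1 and Klrg1 having none. The windows of Klrc1 and Klrc2 are shown because these genes separated by dose together, and that of Klrk1 because this gene of the same region did not. They cover chr6:129678924-129679223 for Klrc1, chr6:129660547-129660846 for Klrc2 and chr6:129623815-129624114 for Klrk1, all read 5′ to 3′ on the minus strand. Capitals mark TGTGGT, the core bound by RUNX factors (written ACCACA where it lies on the other strand), and TGANTCA, the AP-1 motif.
Klrc1: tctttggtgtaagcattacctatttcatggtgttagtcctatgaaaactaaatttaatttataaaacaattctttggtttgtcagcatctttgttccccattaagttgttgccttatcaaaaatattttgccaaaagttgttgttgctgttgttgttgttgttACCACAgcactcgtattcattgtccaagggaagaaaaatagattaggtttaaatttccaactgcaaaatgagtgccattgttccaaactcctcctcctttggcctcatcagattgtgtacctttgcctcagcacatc
Klrc2: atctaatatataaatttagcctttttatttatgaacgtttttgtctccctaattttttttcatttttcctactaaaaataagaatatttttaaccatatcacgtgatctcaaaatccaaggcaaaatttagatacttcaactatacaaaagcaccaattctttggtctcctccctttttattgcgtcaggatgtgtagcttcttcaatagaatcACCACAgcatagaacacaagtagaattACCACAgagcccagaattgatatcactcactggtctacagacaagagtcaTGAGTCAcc
Klrk1: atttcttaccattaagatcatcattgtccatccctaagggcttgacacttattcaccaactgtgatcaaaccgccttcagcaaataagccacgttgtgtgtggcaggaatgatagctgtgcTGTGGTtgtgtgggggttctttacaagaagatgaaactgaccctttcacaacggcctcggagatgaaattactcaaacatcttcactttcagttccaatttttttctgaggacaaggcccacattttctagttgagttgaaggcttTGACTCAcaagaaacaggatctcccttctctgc
The RUNX core TGTGGT occurred in the windows of all 5 genes that had one, against 16.7% of the 32534 windows in the table. These letters were added to the search after the windows had been read, so this count is a description only. TGANTCA occurred in the windows of Klrc2 and Klrk1, against 7.79% of all windows, and did not overlap the RUNX cores. The STAT motif TTCNNNGAA (8.33% of all windows), the T-box motif AGGTGTGA (1.28%) and the ETS motif CAGGAAGT (3.34%) were found in none of the 5. Both strands were searched, and a match is not evidence of binding.

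Klrd1 (NM_010654, plus strand of chromosome 6), the shared CD94 subunit, was the most abundant of the 7 genes per length in untreated cells and at 1 nM. At 500 nM it measured 2.46 CPM with IL-15 and 2.12 CPM with IL-2 at 24 h, and 4.03 CPM with IL-15 and 1.45 CPM with IL-2 at 4 h. At 1 nM the values were 6.64 CPM with IL-15 and 3.27 CPM with IL-2 at 24 h, and 5.40 CPM with IL-15 and 9.07 CPM with IL-2 at 4 h, against 6.52 CPM untreated. The dose groups overlapped through a single library, IL-15 at 500 nM and 4 h, which exceeded IL-2 at 1 nM and 24 h. Among neighbours in the order of levels, IL-2 at 1 nM and 4 h alone stood clear of the next (8.13 to 10.1 against 5.86 to 7.49 CPM). The ratio of 500 nM to 1 nM was lowest with IL-2 at 4 h, 0.160 (0.116 to 0.217), and was 0.746 with IL-15 at 4 h, 0.371 with IL-15 at 24 h and 0.651 with IL-2 at 24 h. DESeq2 called the dose difference of Klrd1 (adjusted p = 0.024) and so did edgeR with a dose by time term (adjusted p = 0.028), while limma-voom did not (adjusted p = 0.079).

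Because Klrc1 and Klrc2 stood higher and Klrd1 lower at 500 nM, the balance between CD94 and its partners on the deposited RPKM scale differed between doses in every library. Klrc1 and Klrc2 summed to 2.08 times the Klrd1 value with IL-15 and 2.99 times with IL-2 at 500 nM and 24 h, and to 1.29 times with IL-15 and 1.89 times with IL-2 at 500 nM and 4 h. At 1 nM the same ratio was 0.0487 with IL-15 and 0.269 with IL-2 at 24 h, and 0.146 with IL-15 and 0.0876 with IL-2 at 4 h. It was 0.0590 in untreated cells. The summed partners thus exceeded Klrd1 in all 4 libraries at 500 nM and in none of the 5 others, a ratio for which no test was run because it follows from the levels already given. With IL-15 at 500 nM and 4 h, Klrc1 alone was 0.808 times Klrd1 and Klrc2 alone 0.486 times. Any reads counted for both Klrc1 and Klrc2 would enter this sum more than once. In RPKM, Klrc1 alone was the highest of the 7 genes in 3 libraries, with 3.30 under IL-15 at 500 nM and 24 h, 3.98 under IL-2 at 500 nM and 24 h and 1.58 under IL-2 at 500 nM and 4 h. Klrd1 was the highest in the 6 others, with 3.72 RPKM under IL-15 at 500 nM and 4 h, 3.22 to 8.95 RPKM at 1 nM and 5.86 RPKM untreated. The 7 genes together summed to 4.87 to 9.52 RPKM at 500 nM, 6.06 to 11.1 RPKM at 1 nM and 7.51 RPKM untreated, ranges that overlap.

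**Figure D2:**
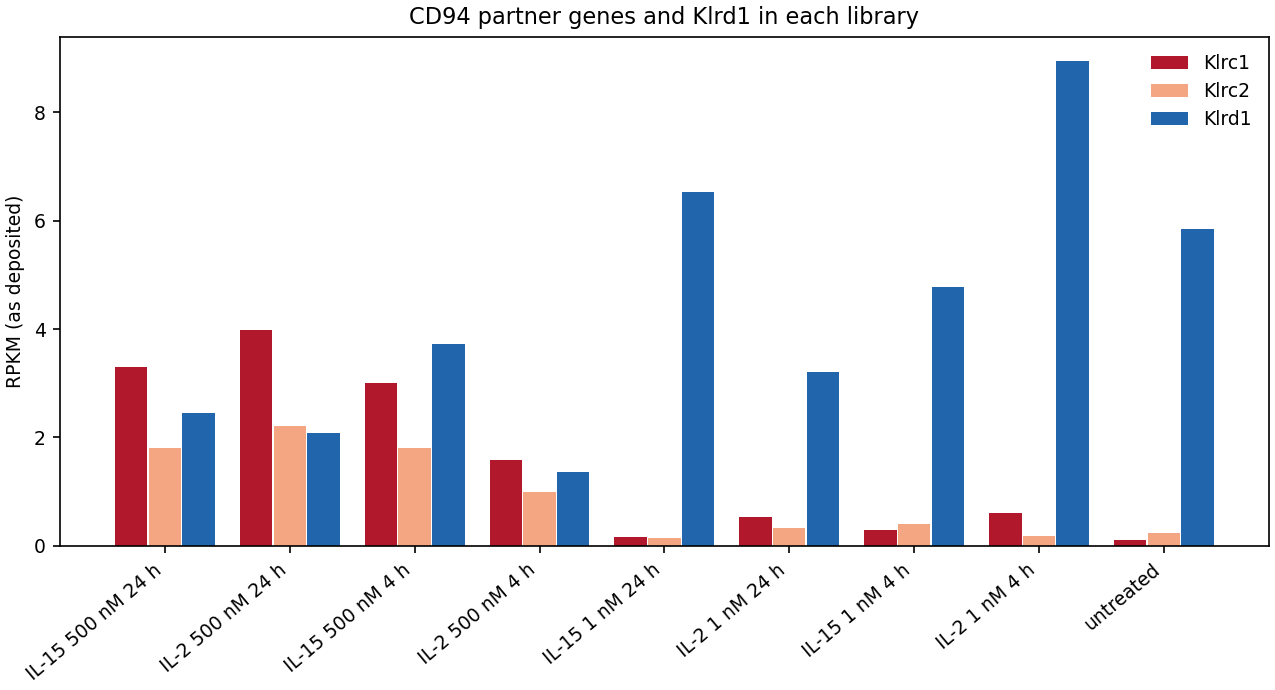
Deposited RPKM of Klrc1, Klrc2 and Klrd1 in each library, on a linear axis, with 1 bar per gene and library and no error bars because each condition has 1 library. Klrd1 exceeds both partners in untreated cells (5.86 RPKM) and at 1 nM (3.22 to 8.95 RPKM), whereas Klrc1 exceeds Klrd1 in 3 of the 4 libraries at 500 nM.

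Klrk1 (NM_033078, minus strand of chromosome 6), the NKG2D gene, did not separate by dose. It measured 2.08 CPM with IL-15 and 3.94 CPM with IL-2 at 500 nM and 24 h, and 3.65 CPM with IL-15 and 3.70 CPM with IL-2 at 500 nM and 4 h. The 1 nM libraries gave 1.66 CPM for IL-15 and 3.07 CPM for IL-2 at 24 h, and 4.19 CPM for IL-15 and 2.34 CPM for IL-2 at 4 h. Untreated cells had 1.42 CPM, the lowest of the 9 libraries, although the interval of every neighbouring pair in the order overlapped. The dose estimate was 0.24 ± 0.45 (edgeR adjusted p = 0.76). All 8 treated libraries exceeding the untreated one, as for Klrk1 and Klrc1, was met by 14.0% of all genes tested, and no test of Klrk1 against untreated cells passed, the largest estimate being 1.37 ± 0.86 at 500 nM and 4 h (edgeR adjusted p = 0.32).

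Klrg1 (NM_016970, minus strand of chromosome 6) was the only 1 of the 7 genes with every value at 500 nM below every value at 1 nM. The same separation was met by 10.3% of all genes tested. At 500 nM it measured 0.178 CPM with IL-15 and 0.283 CPM with IL-2 at 24 h, and 0 CPM with IL-15 and 0.303 CPM with IL-2 at 4 h, from 10 counts or fewer in each. The 0 allows up to 0.0875 CPM. At 1 nM it measured 2.14 CPM with IL-15 and 1.52 CPM with IL-2 at 24 h, and 0.528 CPM with IL-15 and 0.619 CPM with IL-2 at 4 h, against 0.678 CPM in untreated cells. The highest values were thus those at 1 nM and 24 h, and the interval of IL-2 at 1 nM and 24 h (1.20 to 1.90 CPM) stood clear of the untreated one below it (0.420 to 1.04 CPM). Within each cytokine and time, the ratio of 500 nM to 1 nM was 0.0833 (0.0297 to 0.189) with IL-15 at 24 h and 0.186 (0.0858 to 0.361) with IL-2 at 24 h. At 4 h the level was at least 6.04-fold lower at 500 nM with IL-15, by the limit of 3 counts, and the ratio was 0.489 (0.208 to 1.07) with IL-2. The fitted dose estimate of -2.74 ± 1.17 did not pass (edgeR adjusted p = 0.14), though DESeq2 (adjusted p = 0.032) and limma-voom (adjusted p = 0.0497) called it.

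Klrb1c (NM_001159904, minus strand of chromosome 6), the NK1.1 gene, was highest in 2 libraries, with 3.19 CPM under IL-15 at 1 nM and 24 h and 2.91 CPM untreated. With 500 nM it measured 0.623 CPM under IL-15 and 0.595 CPM under IL-2 at 24 h, and 0.992 CPM under IL-15 and 0.0606 CPM under IL-2 at 4 h, the last from 2 counts. The 3 other libraries at 1 nM held 1.07 CPM for IL-2 at 24 h, 1.28 CPM for IL-15 at 4 h and 0.888 CPM for IL-2 at 4 h. The 2 high libraries did not overlap the rest in their counting intervals (2.34 to 3.57 CPM untreated against 0.889 to 1.79 CPM for the next, IL-15 at 1 nM and 4 h). The dose groups overlapped, and the dose estimate was -1.52 ± 0.76 (edgeR adjusted p = 0.20). In stretches of 36 bases, 19.6% of its transcript also occurred in other genes, among them Gm44511, whose exons overlap it on the same strand, Klrb1b and Klrb1a, so its counts are uncertain.

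Ncr1 (NM_010746, plus strand of chromosome 7), the NKp46 gene, had no more than 25 counts in any library. It measured 0.593 CPM with IL-15 and 0.142 CPM with IL-2 at 500 nM and 24 h, and was at 0 counts with either cytokine at 500 nM and 4 h and in untreated cells. At 1 nM it measured 0.176 CPM with IL-15 and 0.495 CPM with IL-2 at 24 h, and 0.340 CPM with IL-15 and 0.511 CPM with IL-2 at 4 h. The 3 zeros allow up to 0.0875 CPM (IL-15, 500 nM, 4 h), 0.0909 CPM (IL-2, 500 nM, 4 h) and 0.0968 CPM (untreated). At 4 h the level was thus at least 3.88-fold lower at 500 nM than at 1 nM with IL-15 and at least 5.63-fold lower with IL-2, whereas at 24 h the ratio was 3.37 (1.37 to 9.44) with IL-15 and 0.286 (0.0856 to 0.762) with IL-2. The 2 cytokines pointed in opposite directions at 24 h, and no test of Ncr1 passed.

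**Figure D3:**
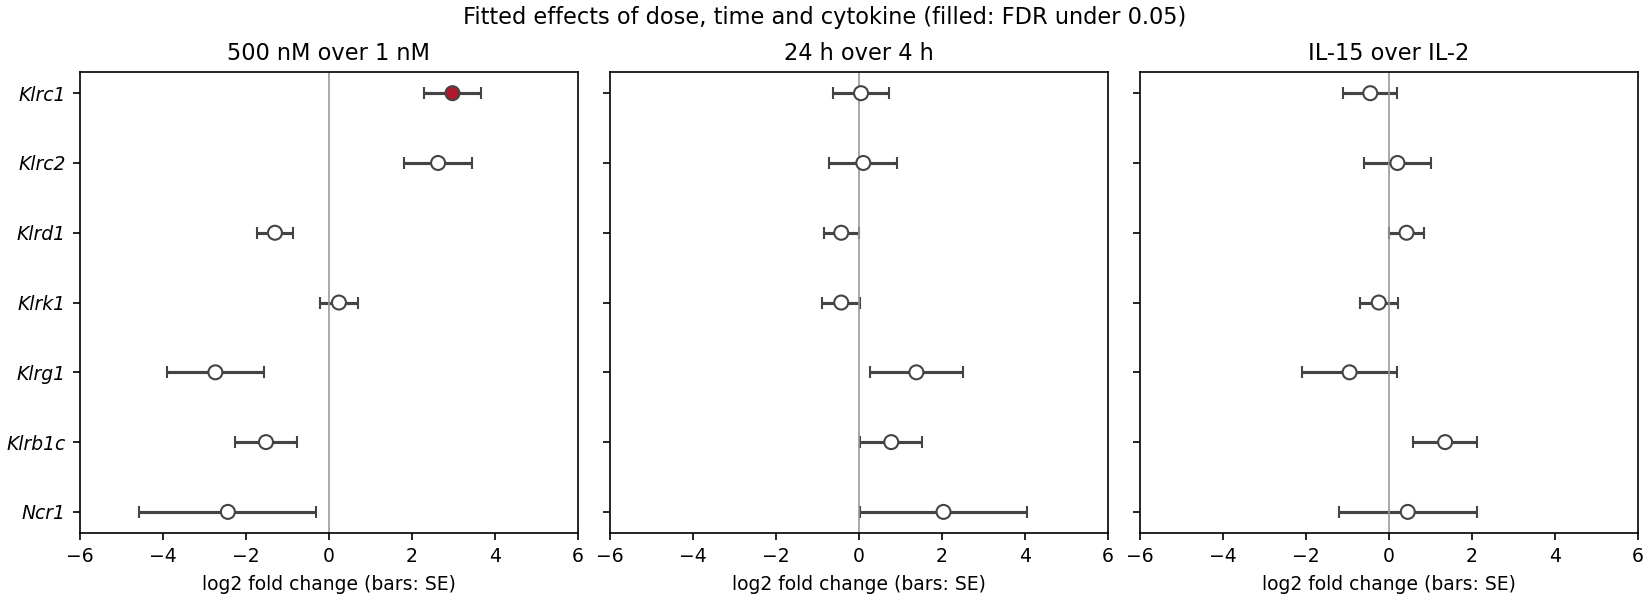
Fitted log2 fold changes of the 7 genes for 500 nM over 1 nM, 24 h over 4 h and IL-15 over IL-2, with bars of 1 SE from edgeR's quasi-likelihood fit over 9 libraries. The filled point, Klrc1 for dose at 2.98 ± 0.69, is the only one with an adjusted p under 0.05.

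Time was compared next, 24 h against 4 h over both cytokines and doses. None of the 7 genes passed edgeR's test, none had an unadjusted p under 0.05, and DESeq2 and limma-voom called none either, while 5.3% of all genes passed. The groups overlapped for every one of the 7 genes, while 5.06% of all genes had every library at 24 h above every library at 4 h and 5.73% every one below. Estimates ran from -0.43 ± 0.42 for Klrd1 and -0.43 ± 0.46 for Klrk1 to 1.38 ± 1.11 for Klrg1 and 2.04 ± 2.02 for Ncr1, with 0.05 ± 0.67 for Klrc1 and 0.11 ± 0.82 for Klrc2. By counts alone, Klrg1 at 1 nM had a ratio of 24 h to 4 h of 4.05 (2.28 to 7.71) with IL-15 and 2.46 (1.53 to 4.11) with IL-2. Klrb1c had a ratio of 9.82 (2.40 to 86.4) with IL-2 at 500 nM, from 21 against 2 counts, and Klrc1 had 2.41 (1.76 to 3.33) there. Klrk1 with IL-15 had ratios of 0.570 (0.419 to 0.769) at 500 nM and 0.396 (0.288 to 0.542) at 1 nM. Within 500 nM, where 26.3% of all genes passed, and within 1 nM, where 2.89% did, edgeR, DESeq2 and limma-voom called none of the 7, with no unadjusted p under 0.05, and Klrg1 at 1 nM had an estimate of 1.77 ± 1.56 (edgeR adjusted p = 0.64). Klrd1 at 1 nM went in opposite directions by cytokine, with a ratio of 24 h to 4 h of 1.23 (1.00 to 1.52) with IL-15 and 0.360 (0.297 to 0.435) with IL-2.

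The 2 cytokines were compared over both doses and both times. None of the 7 genes passed for IL-15 against IL-2 by edgeR, DESeq2 or limma-voom, and none had an unadjusted p under 0.05. Of all 13479 genes tested, 0.0% passed by edgeR, 125 had an unadjusted p under 0.05 and DESeq2 called 2. The leftover spread in this fit includes any dose by time difference, a term that passed for 8.81% of all genes. The absence of calls therefore does not show equal levels under the 2 cytokines. IL-15 and IL-2 libraries overlapped for every one of the 7 genes, as for nearly all genes tested (0.193% had IL-15 higher throughout and 0.297% lower). Klrb1c had the largest estimate, 1.35 ± 0.76, followed in size by Klrg1 at -0.95 ± 1.15, and Klrc1 was at -0.45 ± 0.65. A term for cytokine by dose or cytokine by time called none of the 7 by edgeR, DESeq2 or limma-voom (0.0% of all genes, no member with an unadjusted p under 0.05).

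Single matched libraries differed between the cytokines beyond counting error for several of the genes. Klrd1 had a ratio of IL-15 to IL-2 of 2.77 (1.98 to 3.93) at 500 nM and 4 h, then 2.03 (1.67 to 2.49) at 1 nM and 24 h, but 0.595 (0.486 to 0.726) at 1 nM and 4 h, and 1.16 (0.838 to 1.61) at 500 nM and 24 h. For Klrb1c the ratio was 2.99 (2.16 to 4.19) at 1 nM and 24 h, and 16.4 (4.20 to 141) at 500 nM and 4 h, from 34 counts with IL-15 against 2 with IL-2. It was 1.05 (0.544 to 2.02) at 500 nM and 24 h and 1.44 (0.868 to 2.41) at 1 nM and 4 h, intervals that include 1. Klrk1 at 24 h had ratios of 0.527 (500 nM) and 0.541 (1 nM), but at 4 h ratios of 0.987 (500 nM) and 1.79 (1 nM), so that IL-15 was the lower of the pair at 24 h at both doses. With a bar of 2-fold and at least 20 counts in the higher library, 2 genes were higher and 2 lower at 1 nM and 24 h, where 6.5% of all genes were higher and 8.89% lower. At 500 nM and 4 h, 2 were higher (7.5% of all genes) and none lower (5.8%). Only Ncr1 was higher at 500 nM and 24 h (3.83%), none lower (3.55%), and none moved that far at 1 nM and 4 h (5.82% higher, 7.98% lower). These comparisons of 2 libraries have no replicate check.

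Against untreated cells, Klrc1 rose at 500 nM and 24 h, by 4.82 ± 1.49 (log2, SE, 2 libraries against 1, edgeR adjusted p = 0.032), the only call among the 7 genes, where 25.2% of all genes passed and 12.8% as higher. The edgeR call was lost without the library of either cytokine at 500 nM and 24 h, and limma-voom did not make it. At 500 nM and 4 h no gene of the 7 passed by edgeR (16.4% of all genes), 2 had an unadjusted p under 0.05 against 29.4% of all genes, and the estimates were 4.33 ± 1.46 for Klrc1 (adjusted p = 0.064) and -2.93 ± 1.31 for Klrb1c (adjusted p = 0.16). DESeq2 called Klrc1 there and limma-voom called Klrb1c. At 1 nM none passed by edgeR, DESeq2 or limma-voom at 24 h (1.65% of all genes by edgeR) or at 4 h (6.31%), and none had an unadjusted p under 0.05. These comparisons share the single untreated library, so they are not independent of each other.

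Markers of other cells moved with several of these values. B cell markers (10 measured) summed to 207 to 355 CPM at 500 nM, 470.1 to 712 CPM at 1 nM and 681 CPM untreated. Myeloid markers (11 measured) summed to 20.7 to 105 CPM at 500 nM, 119 to 450.5 CPM at 1 nM and 484 CPM untreated. The lower values of Klrd1, Klrg1 and Klrb1c at 500 nM ran the same way, and the part of these cells in them was not tested. Markers of NKT and gamma delta T cells (8 measured) summed to 21.0 to 53.3 CPM at 500 nM, 39.4 to 56.0 CPM at 1 nM and 44.9 CPM untreated, with Il23r at 0 in all 9 libraries. In the NK cell marker list itself, 2 genes rose and 3 fell with dose among 13 tested. Over all genes tested, 7.63% rose and 8.47% fell. The 3 that fell were the adaptor genes Tyrobp and Fcer1g, described next, and the Fc receptor gene Fcgr3. Besides these 3, DESeq2 and limma-voom each called Gzma, Nkg7 and Styk1 for dose. The median dose estimate of the list was 0.50.

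NK receptors without a signalling tail of their own work through small adaptor proteins. Of 7 adaptor genes 3 fell with dose and none rose, where 8.47% of all genes tested fell and 7.63% rose. The median dose estimate was -1.12, against -0.03 for all genes. Tyrobp, which encodes DAP12, the partner of NKG2C and of several Ly49 receptors, measured 4.14 to 15.5 CPM at 500 nM, 25.4 to 41.6 CPM at 1 nM and 94.7 CPM untreated. The dose groups did not overlap, and Tyrobp fell by 1.99 ± 0.39 (log2, SE, edgeR adjusted p = 0.012). Fcer1g, which encodes the Fc receptor gamma chain used by NK1.1 and NKp46, fell by 1.08 ± 0.28 (edgeR adjusted p = 0.031), a call lost when any of 5 of the 8 treated libraries was left out. Sh2d1a, which encodes SAP, the adaptor of SLAM family receptors, fell by 1.52 ± 0.24 (edgeR adjusted p = 0.0051), to 8.84 to 15.3 CPM at 500 nM against 26.3 to 37.3 CPM at 1 nM. Untreated cells held 17.1 CPM of Sh2d1a, between these ranges and nearer to that at 500 nM. Hcst, which encodes DAP10, the adaptor of NKG2D, showed no such order of the doses. It measured 40.4 CPM with IL-15 and 36.7 CPM with IL-2 at 500 nM and 24 h, 74.0 CPM with IL-15 and 63.2 CPM with IL-2 at 500 nM and 4 h, 94.1 CPM with IL-15 and 89.3 CPM with IL-2 at 1 nM and 24 h, and 44.8 CPM with IL-15 and 44.9 CPM with IL-2 at 1 nM and 4 h. Its dose estimate was -0.32 ± 0.35 (edgeR adjusted p = 0.57), with the low values at 24 h for 500 nM and at 4 h for 1 nM. Tyrobp and Fcer1g are also expressed by myeloid cells, whose markers ran the same way, and the part of those cells was not tested.

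**Figure D4:**
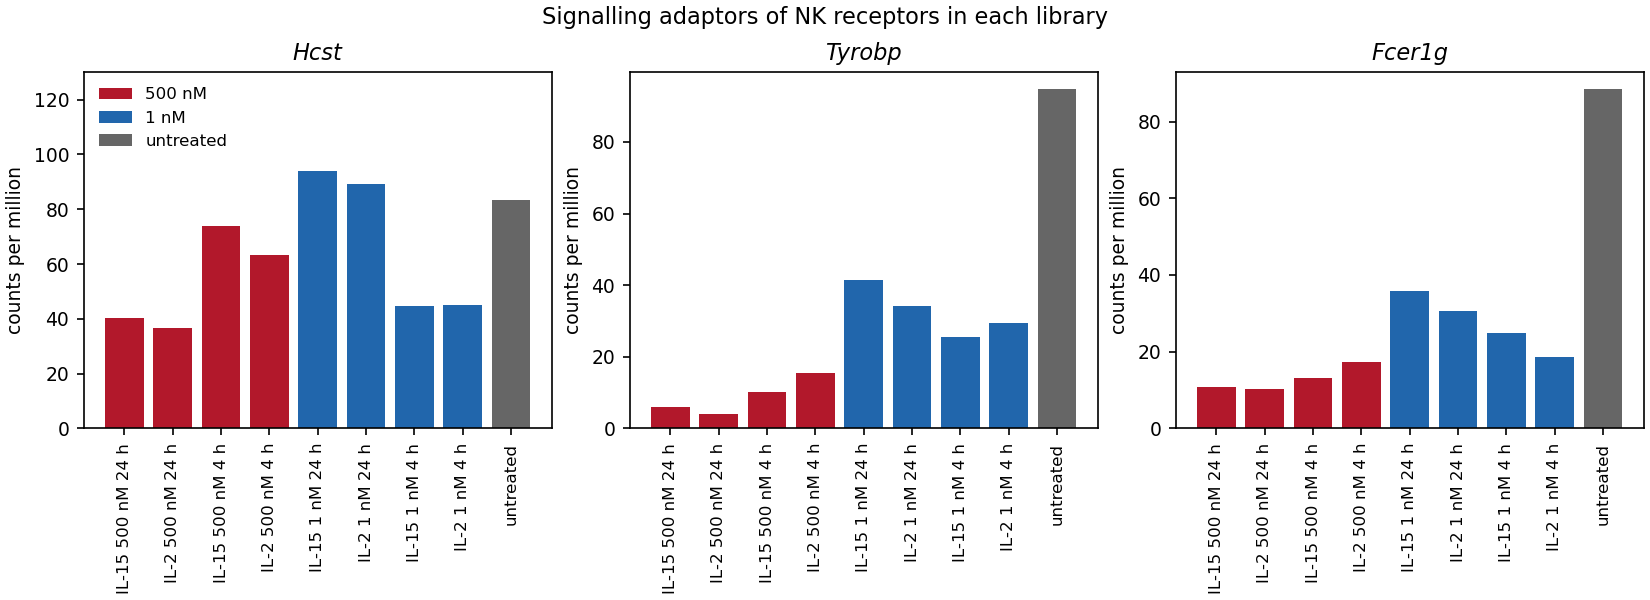
Level of the adaptor genes Hcst, Tyrobp and Fcer1g in each library, in CPM on linear axes that differ between panels, coloured by dose. Tyrobp stands at 4.14 to 15.5 CPM at 500 nM, 25.4 to 41.6 CPM at 1 nM and 94.7 CPM untreated, while Hcst at 500 nM (36.7 to 74.0 CPM) overlaps 1 nM (44.8 to 94.1 CPM).

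Other lectin-like receptors, most of them from the NK gene complex, showed few calls. Of 13 measured and 12 tested, 1 rose with dose and 2 fell, where 7.63% of all genes tested rose and 8.47% fell. Cd69, an early activation marker that holds T cells in tissue, measured 152 to 873 CPM at 500 nM, 7.92 to 90.4 CPM at 1 nM and 29.5 CPM untreated, and rose by 3.40 ± 0.34 (log2, SE, edgeR adjusted p = 9.3e-04). With time Cd69 fell by 2.36 ± 0.32 (edgeR adjusted p = 0.0090). Cd72, an inhibitory receptor of B cells, fell with dose by 0.63 ± 0.18 (edgeR adjusted p = 0.041), a call lost when any of 6 of the 8 treated libraries was left out. Summed B cell markers were also lower at 500 nM, and the part of those cells in Cd72 was not tested. Klrc3, the closest relative of Klrc1 and Klrc2, measured 0.576 to 1.58 CPM at 500 nM, 0.0251 to 0.475 CPM at 1 nM and 0.129 CPM untreated. Its dose groups did not overlap, yet its estimate of 2.57 ± 1.17 did not pass (edgeR adjusted p = 0.16). Of 18 measured Ly49 genes, the MHC class I receptors of mouse NK cells, none was called for dose or time by edgeR, DESeq2 or limma-voom and none had an unadjusted p under 0.05, with a median dose estimate of 1.06. Ly49 genes resemble each other closely, and 2 pairs (Klra6 with Klra19, Klra8 with Klra21) share identical counts, so single members are uncertain.

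Ligand genes of the 7 receptors were measured in the same libraries, with 12 found and 11 tested. In RNA of a mixed preparation, ligand and receptor mRNA cannot be placed in the same cells. None was called by edgeR for dose or time over all treated libraries, where 16.1% and 5.3% of all genes passed. In the models with a dose by time term, 1 of the 11 fell with dose at 24 h, where 31.2% of all genes passed. Likewise 1 fell with time at 500 nM (26.3% of all genes passed), and 1 passed as negative for dose by time (8.81%). The medians were -2.34 for dose and 0.18 for time, and 2 had an unadjusted p under 0.05 for dose and 1 for time. The NKG2D ligand genes were near 0, with at most 0.905 CPM of Raet1e in any library. DESeq2 and limma-voom both called Cdh1 and Cfp for dose, which were named after their values were seen. Cdh1, the E-cadherin ligand of KLRG1, measured 1.19 to 8.23 CPM at 500 nM, 0.729 to 2.56 CPM at 1 nM and 1.19 CPM untreated, with a dose estimate of 1.53 ± 0.51 (edgeR adjusted p = 0.072). Cfp, which encodes properdin, a complement protein also reported to bind NKp46, measured 2.35 to 29.1 CPM at 500 nM, 29.5 to 63.9 CPM at 1 nM and 245 CPM untreated, with a dose estimate of -2.49 ± 0.76 (edgeR adjusted p = 0.055). The myeloid marker sums ran the same way as Cfp, and the part of those cells was not tested. H2-T23, the Qa-1 gene, was abundant throughout, at 577 to 721 CPM at 500 nM, 399 to 763 CPM at 1 nM and 383 CPM untreated, with a dose estimate of 0.26 ± 0.21 (edgeR adjusted p = 0.43).

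Among 15 other activating and inhibitory NK receptors, 2 rose and 1 fell with dose, and 3 rose with time. Over all genes tested, 16.1% passed for dose and 5.3% for time. Slamf7, an activating receptor of the SLAM family, measured 24.7 to 38.4 CPM at 500 nM, 2.99 to 8.69 CPM at 1 nM and 11.2 CPM untreated, and rose by 2.48 ± 0.37 (edgeR adjusted p = 0.0041). Fcgr3, an Fc receptor gene that pairs with the gamma chain, measured 1.31 to 4.67 CPM at 500 nM, 8.30 to 9.95 CPM at 1 nM and 27.7 CPM untreated, and fell by 1.94 ± 0.36 (edgeR adjusted p = 0.0086). Summed myeloid markers ran the same way (20.7 to 105 CPM at 500 nM, 119 to 450.5 CPM at 1 nM, 484 CPM untreated). The part of those cells in Fcgr3 was not tested. Cd160, a receptor on NK cells and activated CD8+ T cells, passed for both factors, with 2.34 ± 0.42 for time (edgeR adjusted p = 0.019) and 1.45 ± 0.41 for dose (edgeR adjusted p = 0.042). Its dose groups overlapped, with 2.22 to 18.8 CPM at 500 nM, 1.21 to 7.76 CPM at 1 nM and 17.5 CPM untreated, and the dose call was lost when any of 7 of the 8 treated libraries was left out and the time call for any of 5. Lair1, an inhibitory collagen receptor, rose with time by 2.01 ± 0.43 (edgeR adjusted p = 0.037, lost without any of 6 libraries), and Crtam, a receptor of activated NK and CD8+ T cells, by 1.39 ± 0.26 (edgeR adjusted p = 0.022, lost without any of 4).

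Signalling enzymes and scaffolds below these receptors, 18 genes, gave 1 rise and 2 falls with dose and 2 rises with time. The shares of all genes that passed were 16.1% for dose and 5.3% for time. Fyn, a Src family kinase, rose by 0.60 ± 0.15 with dose, and Syk, the kinase recruited by DAP12 and the gamma chain, fell by 1.06 ± 0.29, with edgeR adjusted p-values of 0.031 and 0.037. The summed B cell and myeloid markers were also lower at 500 nM, and the part of those cells in Syk was not tested. Pik3r1, which encodes a regulatory subunit of phosphoinositide 3-kinase, fell by 0.86 ± 0.24 (edgeR adjusted p = 0.040). Leaving out 1 treated library at a time, the Syk call was lost for 6 of the 8, the Pik3r1 call for 7 and the Fyn call for all 8. Vav1, a guanine nucleotide exchange factor activated by these receptors, rose with time by 0.63 ± 0.14 (edgeR adjusted p = 0.043), a call lost without any of the 8. It measured 172 to 208 CPM at 24 h, 112 to 137 CPM at 4 h and 164 CPM untreated. Ptpn6, which encodes SHP-1, the phosphatase recruited by inhibitory receptors such as NKG2A, rose with time by 1.18 ± 0.16 (edgeR adjusted p = 0.0093, 0.052 without IL-2 at 500 nM and 4 h), to 211 to 344 CPM at 24 h against 118 to 131 CPM at 4 h. Untreated cells held 389 CPM of Ptpn6, above every library at either time.

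Transcription factors tied to NK receptor genes, 18 measured, gave 3 rises and 2 falls with dose, where 7.63% of all genes tested rose and 8.47% fell. Eomes, a T-box factor of NK cells and effector CD8+ T cells, measured 238 to 683 CPM at 500 nM, 35.1 to 51.0 CPM at 1 nM and 103 CPM untreated. Tbx21, the other T-box factor of these cells, measured 87.7 to 235 CPM at 500 nM, 27.0 to 47.7 CPM at 1 nM and 122 CPM untreated, and rose by 2.23 ± 0.31 (edgeR adjusted p = 0.0028). Both had the Klrc1 order at 500 nM against 1 nM but not against untreated cells, where Klrc1 was lowest and both factors lay above every 1 nM library. Tcf7, the gene of TCF-1, which T cells need to develop and to persist, fell by 2.42 ± 0.18 (edgeR adjusted p = 4.7e-04), to 318 to 352 CPM at 500 nM against 1473 to 2046 CPM at 1 nM and 1912 CPM untreated. Ets1, a factor needed for NK cell development in the mouse, fell by 1.08 ± 0.18 (edgeR adjusted p = 0.0062), to 199.6 to 317 CPM at 500 nM against 471 to 577 CPM at 1 nM. With time, Id3 rose by 1.18 ± 0.19 (edgeR adjusted p = 0.013) and Bach2 fell by 1.28 ± 0.20 (edgeR adjusted p = 0.013), each a call lost without either of 2 libraries. Id3 measured 29.9 to 53.4 CPM at 24 h, 12.3 to 20.3 CPM at 4 h and 54.3 CPM untreated. Bach2 measured 15.1 to 35.3 CPM at 24 h, 53.3 to 68.8 CPM at 4 h and 12.9 CPM untreated. For both genes, the 24 h range lay between the 4 h range and the untreated value.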

How the data were processed

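RNA sequencing libraries of splenic CD8+ T cells, 1 untreated and 8 treated, were each made from 3 pooled samples. The authors deposited raw read counts and RPKM per RefSeq transcript, for 24373 transcripts of 20418 symbols. The submitters' processing notes list CASAVA 1.8, Bowtie 0.12.4 and the mm8 build. Strand use, read length and what was done with reads that match several places were not given in the sources used here. RPKM, per the file headers scaled by exon length and library total by the authors, served only to compare levels between genes.

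The transcript with the highest mean count stood for each symbol. Counts were filtered by filterByExpr (minimum count 10, total 15), scaled by TMM and fitted over 9 libraries with edgeR 4.0.16 (quasi-likelihood, R 4.3.3). The model held cytokine, dose, time and an untreated term, with 4 residual degrees of freedom. Dose at each time, time at each dose, each dose and time over untreated, and the interactions came from models with 1 more term, with 3. CPM use the TMM-scaled totals. P-values were adjusted by Benjamini-Hochberg over all 13479 genes with a threshold of 0.05, and the SE is the log2 fold change divided by the square root of F. Intervals are exact Poisson, or exact binomial for ratios. Pairs of libraries were counted at 2-fold with at least 20 counts in the higher library and an offset of 1. The fits were run on simulated counts with a single kind of change added at a time. That setting is simpler than these data, so it does not show how well the tests work here.

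The 7 genes and all gene lists were chosen with earlier results of these data known. Genes named from a list are up to 4 per list that passed for dose or time with a mean of at least 20 counts, the largest first. Klrc3, Hcst and H2-T23 were added by role, and Cdh1 and Cfp after their values were seen. Alternatives were DESeq2 1.42.0, limma-voom (limma 3.58.1), DESeq2 size factors, no filter, a mean of at least 50 counts, sums over transcripts, models with more interactions, matched libraries as blocks, and each library left out.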

Additional observations from a re-analysis of the deposited data

How the results depend on the processing

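No pairing by replicate number was possible because the labels give none and each condition has 1 library. Libraries matched on cytokine and time were set as blocks for dose, and on cytokine and dose for time, a setting chosen after the data had been seen. Klrc1 then had 2.96 ± 0.74 for dose (edgeR adjusted p = 0.040) and no call among the 7 genes changed, while calls over all genes came to 1534 for dose and 278 for time. Of the genes named from lists, Cd72, Fcer1g, Syk, Pik3r1, Fyn and Cd160 lost their dose call under these blocks, and Vav1 and Lair1 their time call. Leaving out a library leaves its condition empty, so the fit then leans on the main effects of the others. Against 1 of the 7 genes called for dose, DESeq2 called 4 (Klrc1, Klrc2, Klrd1 and Klrg1), limma-voom 3, the model with a dose by time term 3, the model with all interactions of factor pairs 3, sums over transcripts 2 and the fit without the untreated library 2, and leaving out 1 treated library gave 0 to 1. Over all genes, 2170 calls for dose became 3495 with DESeq2, 4325 with the dose by time term, 4621 with all interactions and 927 to 2435 with 1 library left out. For time, 715 calls became 2126 with DESeq2, 1175 with limma-voom, 3045 and 3500 with those 2 models and 82 to 1328 with 1 library left out. For cytokine, 0 became 2 with DESeq2 and 3 with all interactions, and for dose by time 1188 became 1792 with DESeq2 and 356 to 1102. For dose at 24 h, 1 of the 7 became 2 (Klrc1 and Klrc2) with DESeq2, limma-voom and sums over transcripts, and 0 to 1 with 1 library left out. For 500 nM at 4 h over untreated, 0 became 1 with DESeq2, limma-voom, a mean of at least 50 counts and sums over transcripts, and 0 to 1 with 1 left out. For 500 nM at 24 h over untreated, 1 became 0 with limma-voom and 0 to 1 with 1 left out. Where a count moved, the cause was not tested.

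No dose estimate of the 7 genes changed sign under any alternative run. Estimates that changed sign were all uncalled ones. Ncr1 for cytokine (0.45) was -0.44 with limma-voom and -0.072 with the dose by time term. For dose by time, limma-voom gave -0.017 for Klrk1, 0.016 for Klrg1 and -0.24 for Klrb1c, and all interactions gave 0.031 for Klrg1. With 1 library left out, time ran from -0.39 to 0.44 for Klrc1, -0.24 to 0.53 for Klrc2 and -0.65 to 0.043 for Klrd1, and cytokine from -0.16 to 0.59 for Klrc2 and -1.33 to 1.67 for Ncr1. Dose by time ran from -0.025 to 1.81 for Klrc2, -0.32 to 1.33 for Klrd1, -0.64 to 0.81 for Klrk1, -2.02 to 4.34 for Klrg1 and -1.15 to 2.07 for Klrb1c. Among genes named from the lists, Cd69, Tyrobp, Sh2d1a, Slamf7, Fcgr3, Eomes, Tcf7, Tbx21 and Ets1 kept their dose calls under every alternative. Low counts limit Klrg1, Klrb1c and Ncr1, whose estimates carry SE of 0.76 to 2.13 for dose.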

Other observations

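Across all 9 libraries, genes were ranked by how closely log2(CPM + 1) followed that of each of the 7 genes but Ncr1, among 10572 genes with a mean of at least 50 counts. These correlations describe the libraries, which share dose and time, and carry no p. Closest to Klrc1 were Ddx21 (Pearson r = 0.989), Arf1 (0.988) and Gstcd (0.985). Closest to Klrc2 were Hnrnpc (0.990), Gstcd (0.985) and Tcof1 (0.980). Capn7 (0.947), Atg12 (0.940) and Nlk (0.931) were closest to Klrd1, and Dync1li2 (0.939), Rpgr (0.894) and Cpd (0.881) to Klrk1. For Klrg1 they were Gli1 (0.987), Parp16 (0.972) and Pcgf1 (0.965), and for Klrb1c Idh1 (0.949), Anxa9 (0.948) and Fam3a (0.946). With a pseudocount of 0.1 in place of 1, none of these last 6 stayed among the top 3, and Gstcd for Klrc1, Tcof1 for Klrc2 and Nlk for Klrd1 also dropped out.

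Among the 7 genes themselves, Klrc1 and Klrc2 followed each other most closely on the same scale (r = 0.975, 9 libraries), while both ran against Klrg1 (r = -0.75 and -0.78) and Klrd1 (r = -0.70 and -0.73). The close run of Klrc1 with Klrc2 includes whatever reads were counted for both.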
